A study of Saccharomyces cerevisiae with 18 samples.

Results

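Autophagy carries cytoplasm, protein aggregates and whole organelles to the yeast vacuole for breakdown. Its core machinery is named ATG: a kinase complex starts the process, membrane and a lipid kinase build a cup-shaped sac, and a pair of ubiquitin-like conjugation systems attaches Atg8 to the growing membrane. Receptor proteins tie chosen cargo to Atg8, and vacuolar enzymes take the delivered material apart. In growing yeast the kinase complex is held back by TORC1, and several ATG transcripts are known to rise when nutrients run short. The ATG transcripts described here are the 33 S. cerevisiae probe sets whose symbol is ATG followed only by digits, without ATG40, out of 5498 S. cerevisiae probe sets on the array. They stand for 33 genes with a single probe set each.

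The cells were BY4742, a haploid laboratory strain of mating type alpha, grown in YPD, a rich medium. The exposed cultures received nonylphenol, an alkylphenol formed when some surfactants break down, at 5 mg/L or 1 mg/L in ethanol, and control cultures received the same volume of ethanol alone. All cultures were treated in the middle of exponential growth, so ethanol was common to every group, and they were collected after 180 or 120 min. The design thus held 6 groups of 3 arrays, labelled as biological replicates, 18 in all. The labels do not say whether replicates were separate cultures, so the tests rest on a spread among arrays that may be partly technical.

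The values were deposited RMA signals on a log2 scale. Replicate arrays correlated at r = 0.994 to 0.999, and 98.2 to 99.3% of S. cerevisiae values on an array lay above a background of 1.86, the 95th percentile of probe sets for another yeast species. The alpha-specific genes SAG1 and STE3 read 11.58 and 10.02 in controls at 120 min, while URA3 and LYS2, deleted in this strain, read 0.95 and 1.54. LEU2 and HIS3, also mutated in the standard strain, read 3.03 and 9.34, above background, so they did not mark the genotype. A value above this background thus need not come from an intact gene. The poly-A control probe sets, which read transcripts usually spiked into the RNA, were higher on the 5 mg/L arrays than on control arrays, by 0.24 ± 0.24 (SE) at 180 min and by 0.78 ± 0.21 at 120 min. Scaling arrays on these transcripts would lower every difference from control at 5 mg/L by 0.24 at 180 min and by 0.78 at 120 min, and which scaling is the right one was not tested. Signs below are those of the deposited scaling unless stated otherwise.

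A set of genes that mark the other mating type moved with the 5 mg/L dose. The summed signal of 5 a-specific genes (STE2, MFA1, MFA2, AGA2 and BAR1) was 7.39 to 7.55 on the log2 scale at 5 mg/L and 5.83 to 5.86 in controls at 180 min, and 7.53 to 7.69 at 5 mg/L and 5.98 to 6.05 in controls at 120 min. By limma, 5 of 5 were called higher at 180 min and 4 of 5 at 120 min, where STE2, the receptor for alpha-factor, read 4.52 at 5 mg/L and 4.43 in controls. AGA2, a subunit of the a-agglutinin, averaged 5.12 at 5 mg/L and 2.15 in controls at 120 min, where the control level was close to background. The summed signal of 4 alpha-specific genes, which the strain should express, was 13.55 to 13.64 at 5 mg/L and 13.44 to 13.52 in controls at 180 min, and 13.41 to 13.47 at 5 mg/L and 13.52 to 13.58 in controls at 120 min. Its members went different ways, with 2 of 4 called higher and 2 lower at 180 min and 0 higher and 2 lower at 120 min. STE3 averaged 9.60 at 5 mg/L and 10.05 in controls at 180 min and 9.48 at 5 mg/L and 10.02 in controls at 120 min. MF(ALPHA)2, a gene for alpha-factor, averaged 11.15 at 5 mg/L and 11.56 in controls at 180 min and 11.15 at 5 mg/L and 11.58 in controls at 120 min. SAG1 averaged 11.68 at 5 mg/L and 11.42 in controls at 180 min. At 120 min its means were 11.46 at 5 mg/L and 11.58 in controls. MF(ALPHA)1 averaged 12.54 at 5 mg/L and 12.17 in controls at 180 min. At 120 min its means were 12.38 at 5 mg/L and 12.24 in controls. In these bulk samples a change in the share of cells and a change in RNA per cell cannot be told apart. The part of these genes in the ATG differences was not tested.

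ATG transcripts were measured at moderate levels. All 594 values of the 33 probe sets lay above background, and their median level over the 18 arrays was 6.66, against 7.93 for all S. cerevisiae probe sets. The lowest was ATG16 at 3.50 and the highest ATG27 at 9.20. LEU2, mutated in the standard strain, had a mean of 3.02, so the ATG16 differences below are read as lying near the floor. The median SD between replicate arrays was 0.082. The largest SD, 0.45, belonged to ATG16 at 1 mg/L and 120 min, where its arrays read 4.26, 3.40 and 3.60.

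At 5 mg/L many ATG transcripts stood above control at both times on the deposited scaling. At 180 min 17 of 33 (51.5%) were called higher and 1 lower, against 27.1% of all probe sets higher and 34.3% lower, and at 120 min 19 of 33 (57.6%) were called higher and 2 lower, against 25.4% higher and 32.7% lower. A call means an adjusted p under 0.05 by limma with the Benjamini-Hochberg method over all 5498 probe sets. Among probe sets within the ATG range of levels, 27.3% were called higher at 180 min and 25.6% at 120 min. With arrays scaled on the poly-A transcripts instead, 2 ATG genes were called higher and 0 lower at 180 min, against 3.18% of all probe sets higher and 6.82% lower. On that scaling 3 were called higher and 18 lower at 120 min, against 1.73% and 77.8% of all probe sets. The poly-A difference had an SE of 0.24 at 180 min, and this variation among arrays enters every difference on that scaling. There ATG39 was not called at 0.46 (adjusted p = 0.243 by limma) at 180 min. The parts of the shift and of this added spread in the lost calls were not tested.

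The 3 genes still called higher at 120 min on the poly-A scaling were ATG10, ATG41 and ATG8, at 0.96, 0.94 and 0.82. At 180 min they were ATG41 at 1.70 and ATG10 at 0.97, while ATG8 at 0.73 missed the threshold with an adjusted p of 0.0537. On the deposited scaling the median ATG difference was 0.18 at 180 min, against -0.04 for all probe sets, and 0.22 at 120 min, against -0.04. In 17 genes at 180 min and 19 at 120 min the 3 arrays at 5 mg/L all lay above the 3 control arrays, which held for 30.4% of all probe sets at 180 min and 28.7% at 120 min. In 5 genes at 180 min and 3 at 120 min they all lay below, and the share of all probe sets that did so is not given here. The 14 ATG genes called higher at both times were 82.4% of those at 180 min and 73.7% of those at 120 min, against 70.2% and 74.8% for all probe sets. No call was made at either time for 9 genes, ATG2, ATG5, ATG12, ATG14, ATG16, ATG17, ATG20, ATG26 and ATG29.

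**Figure D1:**
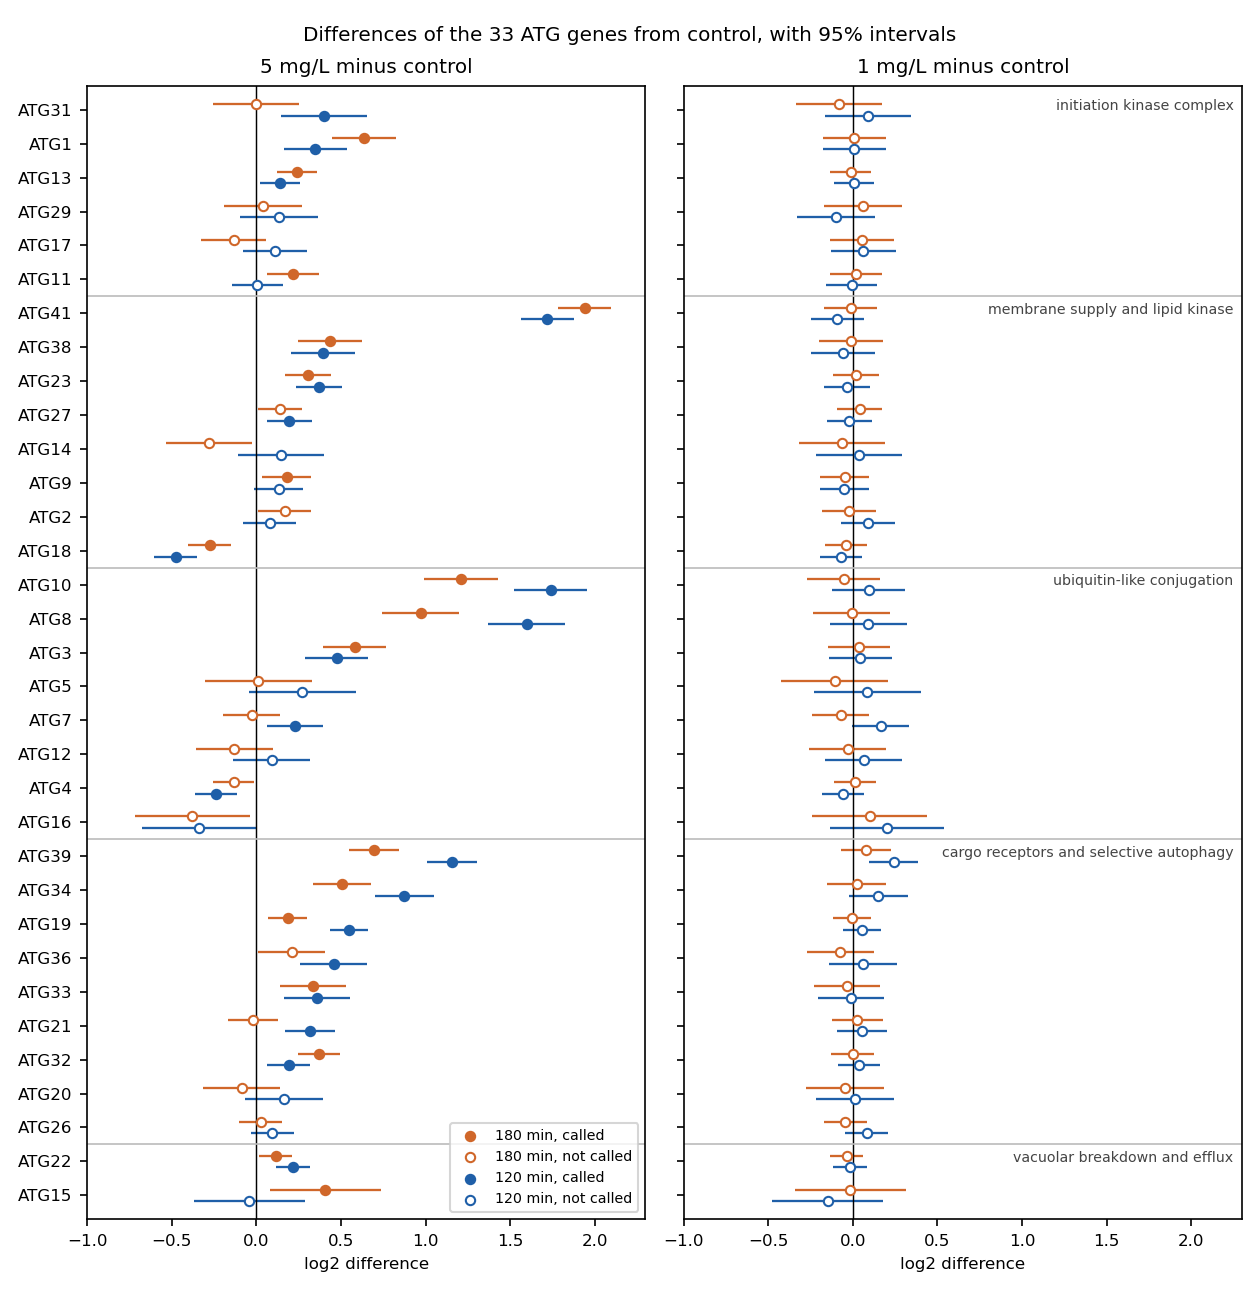
Log2 difference from control (horizontal axis, deposited scaling) of each of the 33 ATG genes (vertical axis, grouped by role) with its 95% interval, at 5 mg/L (left) and 1 mg/L (right), orange for 180 min and blue for 120 min, filled where called. At 5 mg/L 17 genes were called higher and 1 lower at 180 min and 19 higher and 2 lower at 120 min, and at 1 mg/L none was called. On the poly-A scaling 2 were called higher and 0 lower at 180 min and 3 higher and 18 lower at 120 min at 5 mg/L.

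Counts by role are small and are read beside the same shares of all probe sets, 27.1% higher and 34.3% lower at 180 min and 25.4% higher and 32.7% lower at 120 min. In the conjugation systems 3 of 8 genes were called higher and none lower at 180 min, with a median difference of -0.0081, and 4 were called higher and 1 lower at 120 min, with a median of 0.25. ATG8 (YBL078C) encodes the ubiquitin-like protein that is joined to a membrane lipid. It read 8.55, 8.57 and 8.43 at 5 mg/L and 7.54, 7.55 and 7.56 in controls at 180 min. At 120 min it read 9.02, 8.89 and 8.59 at 5 mg/L and 7.22, 7.21 and 7.28 in controls. The groups did not overlap at either time, with control arrays within 0.1 of each other. The differences were 0.97 ± 0.11 (SE, 1.96-fold, adjusted p = 9.84e-07) at 180 min and 1.60 ± 0.11 (3.03-fold, adjusted p = 3.13e-09) at 120 min.

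ATG10 (YLL042C) encodes the E2-like enzyme that joins Atg12 to Atg5. Its arrays read 6.22, 6.18 and 5.90 at 5 mg/L and 4.67, 5.05 and 4.95 in controls at 180 min. The 120 min values were 6.36, 6.32 and 6.40 at 5 mg/L and 4.66, 4.60 and 4.59 in controls. Each treated array lay above each control array of its time, and ATG10 had the largest ATG difference at 120 min, 1.74 ± 0.10 (3.34-fold, adjusted p = 6.09e-10). At 180 min the difference was 1.21 ± 0.10 (2.31-fold, adjusted p = 4.77e-08).

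ATG3 (YNR007C), the E2-like enzyme for Atg8, moved less. It read 7.00, 7.11 and 7.29 at 5 mg/L and 6.59, 6.55 and 6.52 in controls at 180 min. The 120 min values were 6.92, 7.20 and 7.01 at 5 mg/L and 6.55, 6.58 and 6.58 in controls. The groups did not overlap, and the differences were 0.58 ± 0.09 (1.5-fold, adjusted p = 2.61e-05) at 180 min and 0.47 ± 0.09 (1.39-fold, adjusted p = 0.000188) at 120 min. On the poly-A scaling the value at 120 min was -0.31, without a call.

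Other members of these systems changed little. ATG7, the E1-like enzyme that activates both Atg8 and Atg12, differed by -0.03 at 180 min without a call, and at 120 min it was called higher at 0.23. That call was lost without control array 1 or 5 mg/L array 3 of 120 min (0.18, adjusted p = 0.0952 in each case). ATG4, the protease that trims Atg8 and also releases it from lipid, was called lower at 120 min (-0.24, adjusted p = 0.00206), and at 180 min it differed by -0.13 with an adjusted p of 0.0555. ATG12, the other ubiquitin-like protein, its target ATG5 and their partner ATG16 were not called against control at either time. Against control ATG16 differed by -0.38 at 180 min and -0.34 at 120 min, with its 3 treated arrays below the controls at both times (adjusted p = 0.0507 and 0.083).

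The membrane group held the largest ATG difference at 180 min and the only gene called lower at both times. Of its 8 genes 4 were called higher and 1 lower at each time. ATG41 (YPL250C), needed for the movement of Atg9 to the site of assembly, read 8.80, 8.55 and 8.53 at 5 mg/L and 6.72, 6.65 and 6.69 in controls at 180 min. At 120 min it read 8.56, 8.63 and 8.54 at 5 mg/L and 6.74, 6.93 and 6.90 in controls. The distance between the groups was many times the spread within them, and the differences were 1.94 ± 0.07 (3.84-fold, adjusted p = 5.4e-12) at 180 min and 1.72 ± 0.07 (3.29-fold, adjusted p = 1.8e-11) at 120 min. ATG41 ranked 31 of 5498 probe sets from the highest difference at 180 min and 42 at 120 min, where ATG10 ranked 41 and ATG8 ranked 54.

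ATG18 (YFR021W), a phosphoinositide-binding protein that works with Atg2, went the other way. It read 6.79, 6.97 and 6.98 at 5 mg/L and 7.24, 7.20 and 7.12 in controls at 180 min. Its signal at 120 min was 6.70, 6.84 and 6.78 at 5 mg/L and 7.31, 7.20 and 7.25 in controls. The treated arrays lay below the controls at both times, with differences of -0.28 ± 0.06 (adjusted p = 0.000744) at 180 min and -0.48 ± 0.06 (adjusted p = 3.55e-06) at 120 min. ATG2, the lipid transfer protein that pairs with Atg18, differed by 0.17 at 180 min and 0.08 at 120 min without a call. The number of ATG genes called lower at 180 min, 1, was 2 or 3 without control array 1, 1 mg/L array 1 or 2, or 5 mg/L array 2 or 3 of 180 min, or without any 1 of the 6 arrays at 1 or 5 mg/L of 120 min.

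The carriers and regulators of Atg9 and the subunits of the lipid kinase showed small differences. ATG9, the membrane protein whose vesicles seed the sac, was called higher at 180 min (0.18) and not at 120 min (0.13). ATG23 was called higher at 0.30 at 180 min and 0.37 at 120 min, and ATG27, which with Atg23 sends Atg9 on its way, differed by 0.14 without a call at 180 min and was called higher at 0.20 at 120 min. ATG38, a subunit of the phosphatidylinositol 3-kinase complex of autophagy, was called higher at 0.44 at 180 min and 0.39 at 120 min. ATG14, the subunit that gives this complex its place in autophagy, differed by -0.28 at 180 min, with an adjusted p of 0.0534, and by 0.14 at 120 min. The ATG27 call was lost without control array 1 of 120 min (0.16, adjusted p = 0.0656), and the ATG9 call without control array 1 or 2 or 5 mg/L array 2 or 3 of 180 min (adjusted p = 0.0555 to 0.134).

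In the initiation complex 3 of 6 genes were called higher and none lower at each time. ATG1 (YGL180W), the kinase itself, read 6.42, 6.44 and 6.65 at 5 mg/L and 5.91, 5.86 and 5.84 in controls at 180 min. The 120 min arrays gave 6.22, 6.49 and 6.35 at 5 mg/L and 5.98, 5.98 and 6.06 in controls. The groups did not overlap, and the differences were 0.64 ± 0.09 (1.56-fold, adjusted p = 1.15e-05) at 180 min and 0.35 ± 0.09 (1.27-fold, adjusted p = 0.00283) at 120 min. On the poly-A scaling the value at 120 min was -0.43, without a call.

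ATG13, the regulatory partner of Atg1 that TORC1 phosphorylates, was called higher at 0.24 at 180 min and 0.14 at 120 min. ATG17, ATG29 and ATG31 form the scaffold of bulk autophagy. ATG31 stood at 0.00 at 180 min and was called higher at 120 min (0.40), while ATG17 (-0.13 at 180 min and 0.11 at 120 min) and ATG29 (0.04 at 180 min and 0.13 at 120 min) were not called. ATG11, the scaffold of selective autophagy, was called higher at 180 min (0.22) and differed by 0.01 at 120 min. The ATG31 call was lost without 5 mg/L array 1 of 120 min (0.30, adjusted p = 0.0545), and the ATG11 call without control array 1 or 5 mg/L array 1 of 180 min (adjusted p = 0.0596 to 0.106). The ATG13 call at 120 min was lost without control array 1 or 2 or 5 mg/L array 2 or 3 of 120 min, or without control array 2 or 5 mg/L array 1 or 2 of 180 min (adjusted p = 0.0506 to 0.181), and in a fit on the compared groups alone (0.111).

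**Figure D2:**
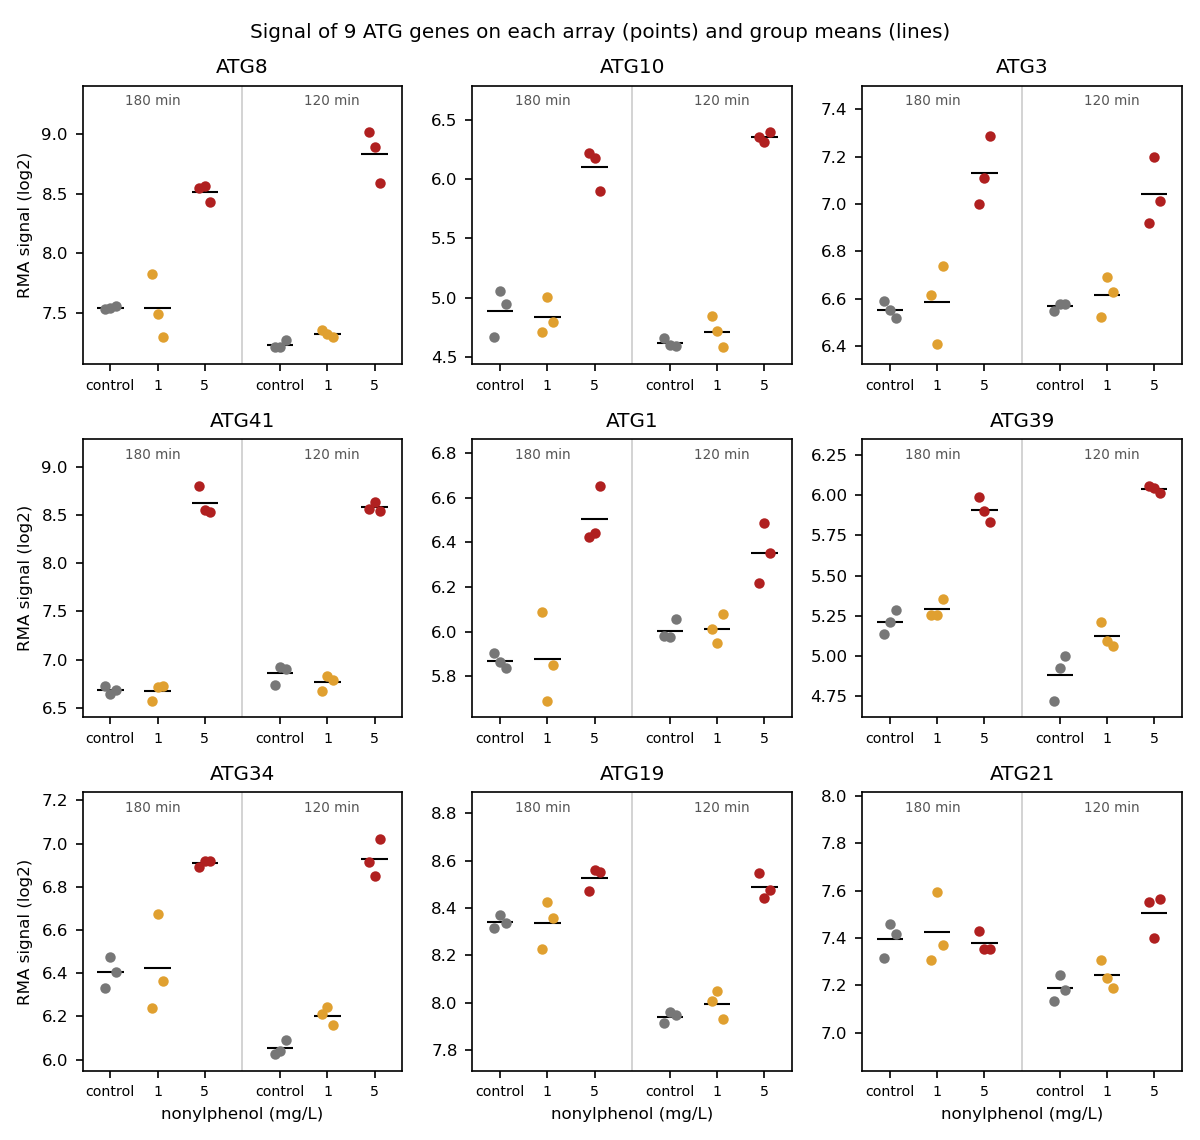
RMA signal (vertical axis, log2, deposited scaling) of 9 ATG genes on each of the 18 arrays by nonylphenol dose (horizontal axis), with 180 min left and 120 min right, points for arrays and lines for group means. In each gene shown except ATG21 at 180 min the 3 arrays at 5 mg/L lie above the 3 control arrays of their time, and on the poly-A scaling ATG3, ATG1, ATG19 and ATG21 have a difference below 0 at 120 min, as do ATG19 and ATG21 at 180 min.

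Among cargo receptors and factors of selective autophagy 5 of 9 were called higher at 180 min and 7 of 9 at 120 min, and none was called lower. ATG39 (YLR312C), the receptor for the nuclear envelope and the endoplasmic reticulum around the nucleus, read 5.99, 5.90 and 5.83 at 5 mg/L and 5.13, 5.21 and 5.29 in controls at 180 min. The values at 120 min were 6.06, 6.04 and 6.01 at 5 mg/L and 4.72, 4.92 and 5.00 in controls. The treated arrays of both times lay close together, while the controls at 120 min were lower than those at 180 min. The differences from control were 0.70 ± 0.07 (1.62-fold, adjusted p = 2.99e-07) at 180 min and 1.16 ± 0.07 (2.23-fold, adjusted p = 6.85e-10) at 120 min.

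ATG34 (YOL083W) and ATG19 (YOL082W) are neighbouring genes and encode receptors that bring alpha-mannosidase to the vacuole, of which Atg19 also carries aminopeptidase I. ATG34 read 6.89, 6.92 and 6.92 at 5 mg/L and 6.33, 6.48 and 6.40 in controls at 180 min. At 120 min it read 6.91, 6.85 and 7.02 at 5 mg/L and 6.03, 6.04 and 6.09 in controls. The groups did not overlap, and the differences were 0.51 ± 0.08 (1.42-fold, adjusted p = 5.29e-05) at 180 min and 0.88 ± 0.08 (1.84-fold, adjusted p = 1.3e-07) at 120 min. ATG19 read 8.47, 8.56 and 8.55 at 5 mg/L and 8.32, 8.37 and 8.34 in controls at 180 min. Its 120 min values were 8.55, 8.44 and 8.48 at 5 mg/L and 7.91, 7.96 and 7.95 in controls. Here too each treated array was above each control of its time, by a small margin at 180 min, and the differences were 0.19 ± 0.05 (adjusted p = 0.0071) at 180 min and 0.55 ± 0.05 (adjusted p = 2.61e-07) at 120 min. On the poly-A scaling they were -0.052 at 180 min and -0.23 at 120 min, neither called.

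The genes for the removal of peroxisomes and mitochondria had smaller differences than ATG39 at both times. ATG36, the receptor for peroxisomes, differed by 0.21 at 180 min, with an adjusted p of 0.0629, and was called higher at 120 min at 0.46. ATG32, the receptor for mitochondria, was called higher at 0.37 at 180 min and 0.19 at 120 min, and ATG33, a mitochondrial membrane protein needed for mitophagy, at 0.34 at 180 min and 0.36 at 120 min. The ATG32 call at 120 min was lost without 5 mg/L array 2 of that time (0.16, adjusted p = 0.0536). ATG21 (YPL100W), a phosphoinositide-binding protein of the same family as Atg18, read 7.43, 7.35 and 7.35 at 5 mg/L and 7.32, 7.46 and 7.42 in controls at 180 min. Its 120 min values were 7.55, 7.40 and 7.56 at 5 mg/L and 7.13, 7.24 and 7.18 in controls. Its groups thus overlapped at 180 min (-0.02, not called) and not at 120 min (0.32 ± 0.07, adjusted p = 0.000962, and -0.46 on the poly-A scaling). ATG20, a sorting nexin (-0.09 at 180 min and 0.16 at 120 min), and ATG26, a sterol glucosyltransferase (0.03 at 180 min and 0.10 at 120 min), were not called.

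The last step in the vacuole is served by 2 of the genes. ATG15, the lipase that breaks open the delivered vesicles, was called higher at 180 min (0.41 ± 0.16, adjusted p = 0.0308) although its treated and control arrays overlapped, and it differed by -0.04 at 120 min. ATG22, which exports amino acids from the vacuole, was called higher at 0.12 at 180 min and 0.22 at 120 min. The ATG15 call was lost without control array 2 or 3 or 5 mg/L array 2 or 3 of 180 min (adjusted p = 0.0641 to 0.136), and the ATG22 call at 180 min without any 1 of 8 arrays, namely the controls of 120 min, control arrays 1 and 3 of 180 min and the 5 mg/L arrays of 180 min (adjusted p = 0.0506 to 0.152), or in a fit on the compared groups alone (0.0732).

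At 1 mg/L no ATG transcript was called against control. The count was 0 of 33 at 180 min, where 0.109% of all probe sets were called in either direction and 0 ATG genes had an unadjusted p under 0.05. It was 0 of 33 at 120 min, where 0.455% of all probe sets were called and 1 ATG gene had an unadjusted p under 0.05. That gene was ATG39, whose arrays at 1 mg/L read 5.21, 5.10 and 5.06, each above the 3 controls, for a difference of 0.24 ± 0.07 (95% interval 0.10 to 0.39, adjusted p = 0.265). At 180 min its 1 mg/L arrays read 5.26, 5.26 and 5.36. The effect of 1 mg/L was called different between the times for 0 of 33 ATG genes, as for 0% of all probe sets, and 1 ATG gene had an unadjusted p under 0.05. The share of all probe sets with an unadjusted p under 0.05 was not counted at 1 mg/L.

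The 1 mg/L arrays of the other genes with large differences stayed near control. ATG8 read 7.83, 7.49 and 7.30 at 1 mg/L at 180 min and 7.36, 7.32 and 7.30 at 120 min. ATG10 read 4.71, 5.01 and 4.79 at 180 min and 4.85, 4.71 and 4.58 at 120 min. ATG41 read 6.58, 6.72 and 6.72 at 180 min and 6.67, 6.83 and 6.79 at 120 min. The 3 ATG8 arrays at 1 mg/L and 120 min lay just above their controls, and the other groups named here overlapped with control. Estimates over the 33 genes ran between -0.11 and 0.10 at 180 min and between -0.15 and 0.24 at 120 min. Their 95% intervals lay within -0.43 to 0.44 at 180 min and -0.48 to 0.54 at 120 min, so differences of the size seen for ATG41, ATG10 and ATG8 at 5 mg/L lay outside them.

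The doses were also compared with each other. At 5 mg/L against 1 mg/L 19 ATG genes were called higher and 3 lower at each time. Of all probe sets 26.7% were called higher and 32.7% lower at 180 min, and 24.3% higher and 33.1% lower at 120 min. The genes called lower were ATG18, ATG4 and ATG16. ATG16, with signals near the floor, differed by -0.48 ± 0.16 (adjusted p = 0.0174) at 180 min and -0.54 ± 0.16 (adjusted p = 0.00878) at 120 min. The number called lower at 180 min was 1 without 5 mg/L array 1 of that time. On the poly-A scaling the counts were 3 higher and 0 lower at 180 min, against 3.15% of all probe sets higher and 3% lower, and 3 higher and 20 lower at 120 min, against 1.26% and 82.1%.

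The effect of 5 mg/L was compared between the times through their interaction. It was smaller at 180 than at 120 min for 6 of 33 ATG genes and larger for 0, against 6.46% of all probe sets smaller and 8.53% larger. An unadjusted p under 0.05 was seen for 12 ATG genes, with estimates in both directions. The share of all probe sets under that value was not counted, so the 12 cannot be set against the whole array. The differences between times were -0.63 ± 0.15 for ATG8 (adjusted p = 0.0135), -0.53 ± 0.15 for ATG10 (adjusted p = 0.024) and -0.46 ± 0.10 for ATG39 (adjusted p = 0.006). They were -0.37 ± 0.12 for ATG34 (adjusted p = 0.0416), -0.36 ± 0.08 for ATG19 (adjusted p = 0.00633) and -0.34 ± 0.10 for ATG21 (adjusted p = 0.033). ATG41 (0.22 ± 0.10, adjusted p = 0.153), ATG1 (0.29 ± 0.13, adjusted p = 0.123) and ATG15 (0.45 ± 0.22, adjusted p = 0.164) had estimates above 0 without a call.

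These calls depended on single arrays, on array weights and on the scaling. The number called lower was 3 without control array 3 or 5 mg/L array 1 of 120 min, control array 2 or 3 of 180 min or 5 mg/L array 3 of 180 min, and 1 gene was called higher without 5 mg/L array 1 of 180 min. With array weights in the fit 13 ATG genes were called lower and 5 higher, among 2203 probe sets called in all, against 824 without weights. None was called on the poly-A scaling, where the estimate for ATG8 was -0.083.

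**Figure D3:**
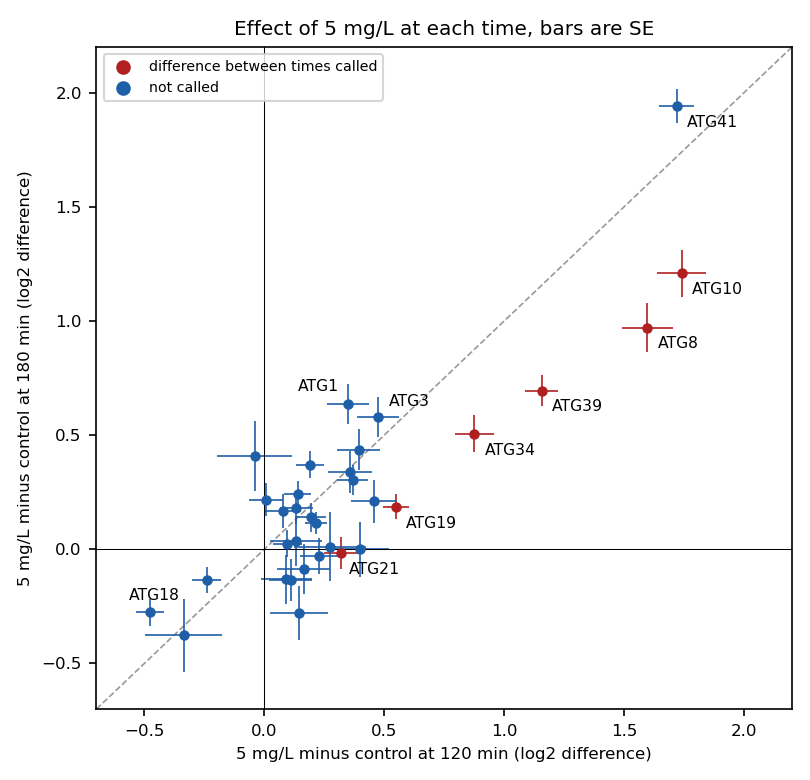
Log2 difference of 5 mg/L from control at 180 min (vertical axis) against that at 120 min (horizontal axis) for the 33 ATG genes on the deposited scaling, with SE bars and a dashed line of equality, red where the difference between times was called. The 6 red genes lie below the line, ATG8 by 0.63, and ATG41 lies above it by 0.22 without a call; on the poly-A scaling none was called.

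Control cultures differed between the times as well. Of 33 ATG genes, 8 were called higher in controls at 180 than at 120 min and 0 lower, against 11.1% of all probe sets higher and 12.1% lower. Of these 8 genes 6 belonged to the cargo group of 9: ATG19 (0.40), ATG34 (0.35), ATG36 (0.34), ATG39 (0.33), ATG20 (0.31) and ATG21 (0.21). The others were ATG31 (0.36) and ATG8 (0.31). Control means of ATG39 were 5.21 at 180 min and 4.88 at 120 min, those of ATG19 were 8.34 at 180 min and 7.94 at 120 min, and those of ATG8 were 7.55 at 180 min and 7.24 at 120 min. At 5 mg/L the means of ATG39 were 5.91 at 180 min and 6.04 at 120 min, those of ATG19 were 8.53 at 180 min and 8.49 at 120 min, and those of ATG8 were 8.52 at 180 min and 8.83 at 120 min. The comparison of control times and the interaction share the control arrays, so their values are given side by side only. The count of 8 became 3 without control array 1 or 3 of 120 min or control array 2 of 180 min, and 4 without control array 3 of 180 min. A fit on the control groups alone called 13 ATG genes higher and 3 lower, with 2217 of all 5498 probe sets called in either direction. Array weights called 15 ATG genes higher and 4 lower, with 2861 of 5498 probe sets called. The main fit called 1278 probe sets, so the larger ATG counts came with more calls across the array. On the poly-A scaling 0 ATG genes were called.

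The share of probe sets called higher at 5 mg/L varied with level on the array. It was 40% at 180 min and 42.6% at 120 min for the 460 probe sets with a mean between 4 and 6, among them 6 ATG genes including ATG10 and ATG39. For the 2095 with a mean between 6 and 8, where 23 ATG genes lay, it was 24.5% at 180 min and 22.8% at 120 min. ATG41 and ATG8, at mean levels of 7.36 and 7.83, were in this second range. Called differences of at least 2-fold were seen for 2 ATG genes (6.06%) at 180 min, ATG41 and ATG10, against 3.44% of all probe sets. At 120 min there were 4 (12.1%), ATG10, ATG41, ATG8 and ATG39, against 3.69%.

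**Figure D4:**
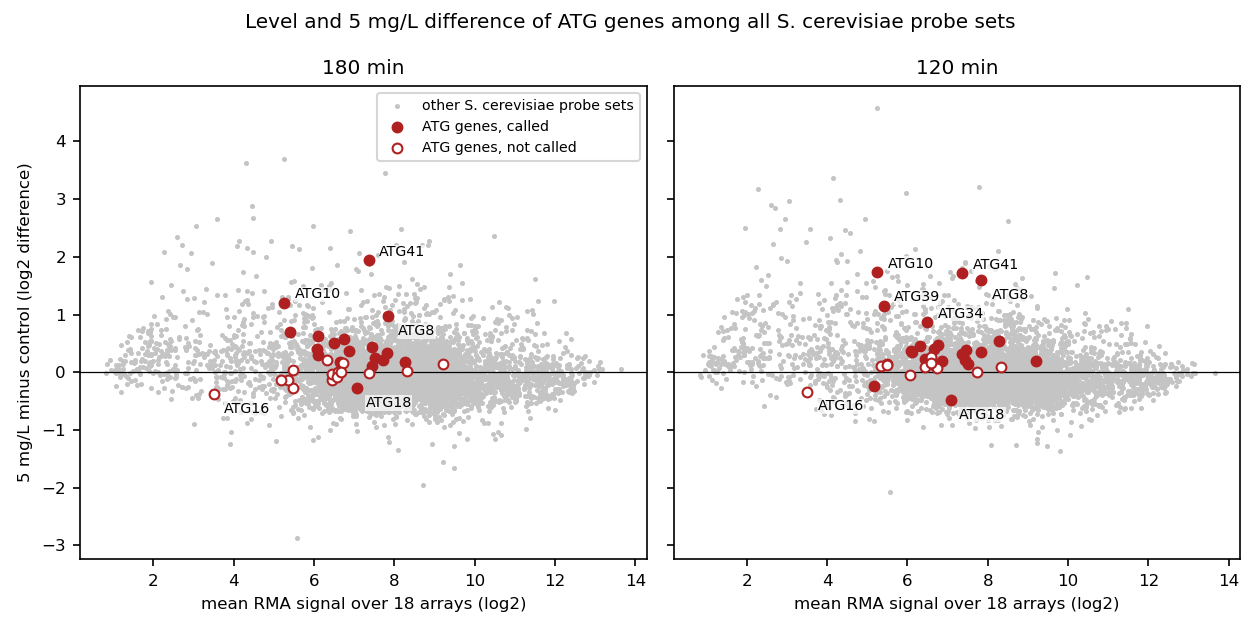
Log2 difference of 5 mg/L from control (vertical axis, deposited scaling) against mean signal over the 18 arrays (horizontal axis, log2) for all 5498 S. cerevisiae probe sets, grey, and the 33 ATG genes, red and filled where called, at 180 min (left) and 120 min (right). ATG41 stands at 1.94 at 180 min and 1.72 at 120 min and ATG10 at 1.21 at 180 min and 1.74 at 120 min, and on the poly-A scaling these are 1.70 at 180 min and 0.94 at 120 min for ATG41 and 0.97 at 180 min and 0.96 at 120 min for ATG10.

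Genes that work with the ATG proteins under other names were called at 5 mg/L in shares near those of the whole array. Of 20 measured partners in membrane traffic and fusion 5 were called higher and 6 lower at 180 min, against 27.1% of all probe sets higher and 34.3% lower, and 6 higher and 7 lower at 120 min, against 25.4% and 32.7%. SNX4, the sorting nexin that pairs with Atg20, was called higher at 0.41 at 180 min and 0.56 at 120 min, and VPS41, a tethering subunit at the vacuole, at 0.45 at 180 min and 0.51 at 120 min. VPS16, a further tethering subunit, was called lower at -0.42 at 180 min and -0.31 at 120 min, and VPS15, the regulatory subunit of the lipid kinase, at -0.38 at 180 min. MON1, which helps activate the vacuolar Rab protein, was called higher at 0.42 at 120 min. VPS30, the subunit that carries the alias ATG6, was called lower at 180 min (-0.17) and not at 120 min (-0.07).

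Of 10 measured vacuolar enzymes and cargo proteins 4 were called higher and 4 lower at 180 min, against 27.1% of all probe sets higher and 34.3% lower. At 120 min 4 were called higher and 2 lower, against 25.4% and 32.7%. AMS1, the alpha-mannosidase carried by Atg19 and Atg34, was called higher at 1.70 ± 0.09 (adjusted p = 1e-10) at 180 min and 1.91 ± 0.09 (adjusted p = 2.84e-11) at 120 min. PRB1, vacuolar proteinase B, was called higher at 1.27 at 180 min and 1.11 at 120 min, and PEP4, proteinase A, at 0.41 at 180 min and 0.48 at 120 min. PHO8, the vacuolar alkaline phosphatase, was called lower at -0.38 at 120 min, and APE4, an aspartyl aminopeptidase, at -0.63 at 180 min.

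Genes of TORC1, its regulators and other signalling proteins, 20 measured, had 6 called higher and 6 lower at 180 min and 6 higher and 5 lower at 120 min. These were near the shares of all probe sets (27.1% higher and 34.3% lower at 180 min, 25.4% and 32.7% at 120 min). SCH9, a kinase that TORC1 phosphorylates, was called higher at 0.63 at 180 min, as were TAP42 (0.35), a regulator of phosphatases, and BCY1 (0.53), the inhibitory subunit of protein kinase A. GTR1, a GTPase upstream of TORC1, was called lower at -0.27. At 120 min NPR2 (-0.40) and IML1 (-0.33), which restrain TORC1 when nitrogen is short, were called lower, as was KOG1 (-0.24), a subunit of TORC1, and MEH1 (0.50), of the vacuolar anchor, was called higher.

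Of 13 regulators of transcription reported for ATG genes 6 were called higher and 1 lower at 180 min, against 27.1% of all probe sets higher and 34.3% lower, and 3 higher and 2 lower at 120 min, against 25.4% and 32.7%. RPH1, a repressor of several ATG genes, was called higher at 0.97 at 180 min and 0.41 at 120 min, GAT1, an activator of nitrogen-repressed genes, at 0.78 at 180 min and 0.28 at 120 min, and ROX1, a repressor of hypoxic genes, at 1.04 at 180 min and 0.43 at 120 min. PHO23, of the Rpd3 deacetylase complex, was called higher at 0.29 at 180 min, and SPT10 was called lower at -0.36 at 120 min. UME6, a repressor of ATG8, was not called, at 0.16 at 180 min and 0.03 at 120 min.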

How the data were processed

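The authors deposited RMA signals: RMA corrects for background, normalizes across arrays and gives each probe set 1 value. RMA, affy and limma are named per the submitters' processing notes, with no version or setting stated. The deposited signals span 0.41 to 13.74 and were taken to be log2, since no source used here states the base. The table held 10928 probe sets, 7245 of them named in the platform annotation. Of these, 5498 belonged to S. cerevisiae (5449 genes) and were tested, and 1747 to another species, including 17 with lower-case atg names, which set the background. The 33 ATG symbols were the same in the current gene table, and all 33 probe sets were of the gene-specific type.

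A model with 1 mean per group was fitted to all 18 arrays with limma (version 3.58.1, under R 4.3.3), using lmFit, contrasts.fit and eBayes with trend and robust off. The Benjamini-Hochberg adjustment ran over the 5498 probe sets of a comparison, 9 comparisons in all, and the threshold was 0.05. SE and 95% intervals use 1 spread per probe set, pooled over the 6 groups, and precision is limited by how many arrays there were. The steps were tested on simulated data. Array values are printed for ATG genes called at 5 mg/L against control with a log2 difference of at least 0.5 in size, called at 1 mg/L or called between times, and for ATG18, chosen after its values were seen. From each partner list up to 4 called genes with the smallest p at each time are named, and UME6 and VPS30 were added after their values were seen. Members and lists were chosen with earlier results of these data known. Alternatives were 8 other settings and leaving out each of the 18 arrays in turn. Residuals of same-numbered arrays correlated at 0.247 to 0.409 in all 3 pairs of 1 mg/L and control at 120 min, so the numbers were taken as pairing there. The main fit and its SE did not use this pairing. Sequences were not used here, and gene neighbours were taken from the order of genes in the RefSeq table.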

Additional observations from a re-analysis of the deposited data

Results flagged for a closer look

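The effect of 5 mg/L on 6 ATG genes differed between 180 and 120 min by the interaction in the limma model. The differences, 180 minus 120 min, were -0.63 for ATG8, -0.53 for ATG10, -0.46 for ATG39, -0.37 for ATG34, -0.36 for ATG19 and -0.34 for ATG21. For 3 of these genes the call was lost without single arrays: ATG34 without any 1 of 11 (adjusted p = 0.0502 to 0.112), ATG21 without any 1 of 8 (0.0629 to 0.0936) and ATG10 without any 1 of 5 (0.0524 to 0.0759). ATG8, ATG39 and ATG19 kept the call without each of the 18 arrays in turn. On the poly-A scaling none of the 6 genes was called. The estimates there were -0.083 for ATG8, 0.082 for ATG39 and 0.18 for ATG19.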

How the results depend on the processing

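Of 53 called differences of single ATG genes, 36 were called without each array in turn. Scaling on the poly-A transcripts moved counts and turned signs. Against control at 5 mg/L it gave 2 ATG genes higher and 0 lower at 180 min, with 550 probe sets called in all, and 3 ATG genes higher and 18 lower at 120 min. For 5 against 1 mg/L it gave 3 higher and 0 lower at 180 min, with 338 probe sets called, and 3 higher and 20 lower at 120 min. It left 0 ATG genes and 5 probe sets between times, 0 ATG genes and 1 probe set between control times, and 0 probe sets at 1 mg/L at either time.

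The signs listed next are those of differences called on the deposited scaling, and some differences without a call turned as well. Signs turned on the poly-A scaling at 120 min for ATG36 (-0.33), ATG33 (-0.42), ATG7 (-0.55), ATG13 (-0.64), ATG27 (-0.59), ATG3 (-0.31), ATG32 (-0.59), ATG1 (-0.43), ATG38 (-0.39), ATG23 (-0.41), ATG22 (-0.57), ATG31 (-0.38), ATG21 (-0.46) and ATG19 (-0.23). At 180 min they turned for ATG9 (-0.059), ATG22 (-0.12), ATG11 (-0.022) and ATG19 (-0.052), and between times for ATG39 (0.082), ATG34 (0.17), ATG10 (0.014), ATG21 (0.21) and ATG19 (0.18).

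Array weights gave 4 ATG genes lower at 5 mg/L at 180 min, 2 higher at 1 mg/L at 120 min, 5 higher and 13 lower between times at 5 mg/L, 1 lower between times at 1 mg/L, and 15 higher and 4 lower between control times. They called 106 and 252 probe sets at 1 mg/L at 180 and 120 min, 2203 and 159 between times at 5 and 1 mg/L, and 2861 between control times. A fit on the compared groups alone gave 4 ATG genes lower at 5 mg/L at 180 min, 13 higher and 3 lower between control times, 2217 probe sets between control times and 2 at 1 mg/L at 180 min, and it lost the calls of ATG13 at 120 min and ATG22 at 180 min. Leaving out dim probe sets, or the replicate block, gave 2 ATG genes lower at 5 mg/L at 180 min. Calls over all probe sets were not split by direction in these fits. How their ATG counts by direction compare with the whole array thus cannot be read here.

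With the replicate block ATG31 between control times had an adjusted p of 0.0505. In the other 3 comparisons with control the numbers did not meet the criterion for pairing: 2 of 9 same-numbered pairs had residual correlations over 0.1, and 1 of 9 treated arrays correlated best with the control of its own number. At 1 mg/L at 120 min the block changed no ATG call. The block gives arrays of the same number 1 shared shift across all 6 groups, so it is not a test of the pairing at 1 mg/L and 120 min alone.

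Without single arrays the ATG counts ranged as follows. At 5 mg/L against control they were 14 to 19 higher and 1 to 3 lower at 180 min and 16 to 20 higher and 2 to 3 lower at 120 min. For 5 against 1 mg/L they were 16 to 19 higher at each time, with 1 to 3 lower at 180 min and 2 to 3 at 120 min. Between times they were 0 to 1 higher and 3 to 8 lower, and between control times 3 to 10 higher. Counts of all probe sets were 2 to 9 at 1 mg/L at 180 min, 14 to 38 at 120 min, 403 to 1160 between times and 646 to 1469 between control times. At 1 mg/L no ATG gene was called without any single array. The calls of ATG8, ATG20, ATG21, ATG31 and ATG36 between control times were lost without 10, 12, 4, 5 and 3 arrays. The cause of these changes was not tested.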

Other observations

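The neighbours of the 8 ATG genes named here did not share 1 direction at 5 mg/L against control. Beside ATG41, YAH1 differed by 0.75 at 180 min and 0.54 at 120 min and RPL36B by -0.21 at 180 min and -0.20 at 120 min. Beside ATG10, FPS1 differed by -0.10 at 180 min and -0.15 at 120 min and SDH2 by -0.60 at 180 min and -0.15 at 120 min. Beside ATG8, NUP170 differed by -0.12 at 180 min and -0.30 at 120 min and ILS1 by -0.41 at 180 min and -0.54 at 120 min. Beside ATG39, CDC25 differed by 0.35 at 180 min and 0.19 at 120 min and MRPL15 by -0.21 at 180 min and 0.07 at 120 min. ATG34 and ATG19 adjoin each other, and their outer neighbours were PHM7, at 0.67 at 180 min and 0.86 at 120 min, and IRA2, at -0.01 at 180 min and -0.10 at 120 min. Beside ATG1, TOS3, a kinase upstream of Snf1, differed by 0.90 at 180 min and 1.14 at 120 min and GTS1 by 0.37 at 180 min and 0.33 at 120 min. Beside ATG3, VPS27 differed by 0.42 at 180 min and 0.22 at 120 min and LRO1 by -0.13 at 180 min and -0.29 at 120 min. Gene order was taken from the RefSeq gene table of assembly R64.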
